A study of Mus musculus with 12 samples.

Results

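Transcripts of the clock output transcription factors were followed in skeletal muscle of C57BL/6N mice over 4 groups of 3 RNA sequencing libraries. The 8 genes, taken by symbol, were Dbp, Tef, Hlf, Nfil3, Bhlhe40, Bhlhe41, Ciart and Rora. All 8 were found in both deposited count tables, among 21976 genes that the tables share. Every mouse was 6 weeks old when its diet began, and each diet lasted 18 weeks. The PCN group ate a high-fat diet and received pregnenolone carbonitrile, a synthetic steroid that activates the pregnane X receptor in rodents, by intraperitoneal injection at 50 mg/kg daily over 4 days. The Vehicle group ate the same diet and was injected on the same schedule with corn oil containing 30% DMSO. The HFD group ate the high-fat diet and the Chow group regular chow, and the labels record no injection for either. No genetic change is named in any group. The sampled muscle and the hour of sampling were both not given in the sources used here, and the labels do not say that each library came from its own mouse, so p-values measure only the spread between these samples, which may be technical.

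The circadian clock of muscle fibres, as of other cells, is a transcription loop in which CLOCK and BMAL1, the product of Arntl, activate genes through E-boxes, and the PER and CRY proteins made from some of those genes shut them off again. Output factors pass the rhythm on. DBP, TEF and HLF, the PAR bZIP activators, bind D-boxes, and NFIL3 represses through the same sites. BHLHE40 and BHLHE41 compete for E-boxes as repressors, CIART represses the CLOCK and BMAL1 complex, and RORα activates genes with ROR elements, Arntl among them. Many of these transcripts, Dbp above all, rise and fall over the day in mouse tissues.

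Promoter windows are shown for the factors whose values are described most closely below or that hold the canonical E-box. The windows are the 250 bases before a RefSeq start on GRCm38.p6, written 5′ to 3′ on the gene's strand, with E-boxes in capitals. The Dbp window is chr7:45704997-45705246 on the plus strand, the Tef window chr15:81802423-81802672 on the plus strand, the Bhlhe41 window chr6:145865421-145865670 on the minus strand and the Ciart window chr3:95882229-95882478 on the minus strand.
Dbp: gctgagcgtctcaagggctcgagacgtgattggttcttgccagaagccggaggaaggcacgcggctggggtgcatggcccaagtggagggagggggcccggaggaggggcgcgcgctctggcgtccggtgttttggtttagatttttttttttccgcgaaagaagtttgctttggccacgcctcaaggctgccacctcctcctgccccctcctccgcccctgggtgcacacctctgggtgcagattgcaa
Tef: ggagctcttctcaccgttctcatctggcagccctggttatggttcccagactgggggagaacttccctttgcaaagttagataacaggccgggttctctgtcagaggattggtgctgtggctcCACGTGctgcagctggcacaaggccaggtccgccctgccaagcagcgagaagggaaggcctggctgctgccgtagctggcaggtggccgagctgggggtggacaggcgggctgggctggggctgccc
Bhlhe41: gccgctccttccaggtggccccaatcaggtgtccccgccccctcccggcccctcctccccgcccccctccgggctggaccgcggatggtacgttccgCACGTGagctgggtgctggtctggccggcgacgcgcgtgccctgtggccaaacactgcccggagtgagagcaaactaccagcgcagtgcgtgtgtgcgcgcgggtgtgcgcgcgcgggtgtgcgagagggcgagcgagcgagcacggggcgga
Ciart: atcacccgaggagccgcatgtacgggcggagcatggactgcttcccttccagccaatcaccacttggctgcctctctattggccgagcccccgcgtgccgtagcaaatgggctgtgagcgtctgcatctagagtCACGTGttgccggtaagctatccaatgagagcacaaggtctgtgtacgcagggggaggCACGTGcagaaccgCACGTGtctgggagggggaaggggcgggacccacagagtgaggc
Of the 8 factors, 7 matched a RefSeq promoter, and Bhlhe40 is named only. These 7 genes gave 8 windows, 2 of them for Tef, and the bases after the Hlf start matched no transcript of the reference annotation, so its window is counted but not shown. The E-box CACGTG, which reads alike on both strands, occurred in 3 of these 7 genes: at -127 from the start shown for Tef and at -138 from its second RefSeq start (window chr15:81811164-81811413), at -153 in Bhlhe41, and at -116, -58 and -44 in Ciart. It occurred in 6.02% of 32851 promoter windows of the same length. The D-box, searched on both strands as TTATGTAA, TTATGCAA, TTACGTAA or TTACGCAA, occurred in 0 of the 7 genes and in 1.75% of all windows. The ROR element core AGGTCA, searched on both strands, occurred in Nfil3, at -12 on the opposite strand, and in 14.0% of all windows. These letters are matches in a window and not measured binding sites, and sites outside the windows were not searched. The tables' gene spans begin before some RefSeq starts, so the Tef window lies inside the Tef span given below, and the Dbp, Bhlhe41 and Ciart windows run into those genes.

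Total counts per library were 14379421 to 19739226 in PCN, 16790642 to 17628784 in Vehicle, 14266093 to 17096576 in HFD and 12770308 to 18920359 in Chow. Levels below are read counts scaled to library size after TMM normalisation of the 12 libraries together (CPM), and errors on levels are the SD of 3 libraries. Libraries are called by the numbers in their labels, as in PCN 5, and gene coordinates are those of the tables on GRCm38. Muscle fibre markers were abundant in every library: the summed level of 7 muscle fibre genes was 83326 to 144110 CPM in PCN, 84948 to 145120 in Vehicle, 104280 to 150690 in HFD and 111530 to 141610 in Chow. Some libraries stood apart in fibre genes. Summed over 6 slow-fibre genes, the 3 HFD libraries had 36.3 to 45.9 CPM, while Chow 8, 19 and 17 had 37.6, 691 and 614 CPM. The PCN and Vehicle counts held 0 of the 7 slow-fibre genes listed, so no such sum was made for those groups. PCN 5 and Vehicle 55 had 10869 and 9146 CPM of Myh1, a fast myosin, against 2111 to 3482 CPM in the other PCN and Vehicle libraries. Other fast-fibre genes went the opposite way in these libraries. Myh4, also a fast myosin, had 30398 and 33281 CPM against 55942 to 79008, and Actn3 had 4204 and 4643 CPM against 8395 to 11677. The adipocyte sum over 5 genes was 101 to 119 CPM in PCN, 93.2 to 290 in Vehicle, 94.2 to 438 in HFD and 64.8 to 256 in Chow, and the macrophage sum over 5 genes was 20.4 to 22.9, 17.6 to 32.3, 19.7 to 44.3 and 14.0 to 25.1 CPM in the same groups. The endothelial sum over 4 genes was 68.9 to 123 CPM in PCN, 72.0 to 114 in Vehicle, 79.3 to 111 in HFD and 99.8 to 126 in Chow. The fibroblast sum over 4 genes was 218 to 301 CPM in PCN, 233 to 336 in Vehicle, 238 to 415 in HFD and 274 to 460 in Chow. Among these 4, Col1a1, a collagen gene named here after its values were seen, fell by 1.32 ± 0.22 log2 for Vehicle against HFD (edgeR adjusted p = 0.0344). Dcn, Pdgfra and Dpt did not pass in that comparison, at 0.079 ± 0.21, -0.037 ± 0.35 and -0.40 ± 0.33 log2. The red blood cell sum over 5 genes was 63.7 to 76.2 CPM in PCN, 44.8 to 214 in Vehicle, 48.4 to 59.8 in HFD and 69.6 to 136 in Chow. By this sum HFD lay below PCN and Chow without overlap. PCN and HFD were separate for Hba-a1, Hbb-bs and Alas2, and overlapped for Hba-a2 and Hbb-bt (0.013 ± 0.30 and 0.098 ± 0.35 log2). HFD and Chow were separate for Hbb-bs and Alas2, and overlapped for Hba-a1, Hba-a2 and Hbb-bt. These pairs of groups were separate for 27% and 13% of all genes. The part of these markers in the values of the 8 factors was not tested. Among the listed genes that the counts of a group held, none was at 0 in any library. Myh2, a further gene of the muscle fibre list, was missing from the PCN and Vehicle counts, as were the slow-fibre genes. The 2 tables thus differ in the muscle genes they hold, and the reason was not tested. In whole muscle, fewer cells of a type and less RNA per cell cannot be told apart.

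Per kilobase of exon, Tef was the most abundant of the 8 factors and Hlf the least. The mean over 12 libraries was 27.0 CPM per kb for Tef, 19.3 for Nfil3, 18.8 for Rora, 10.5 for Bhlhe40, 9.83 for Dbp, 4.56 for Ciart, 3.88 for Bhlhe41 and 1.16 for Hlf. Over the 12 libraries the ranges of neighbours in this order overlapped, except that every value of Hlf lay below every value of Bhlhe41. The 3 PAR bZIP activators, which bind the same D-box, lay far apart in level: Tef made up 61.9% to 81.4% of their summed level per kb in PCN, 66.2% to 70.4% in Vehicle, 69.0% to 83.7% in HFD and 69.0% to 81.4% in Chow. Across all 12 libraries Dbp and Ciart varied most, with 3.57-fold and 3.23-fold between the highest and the lowest library, and Tef least, with 1.68-fold.

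**Figure D1:**
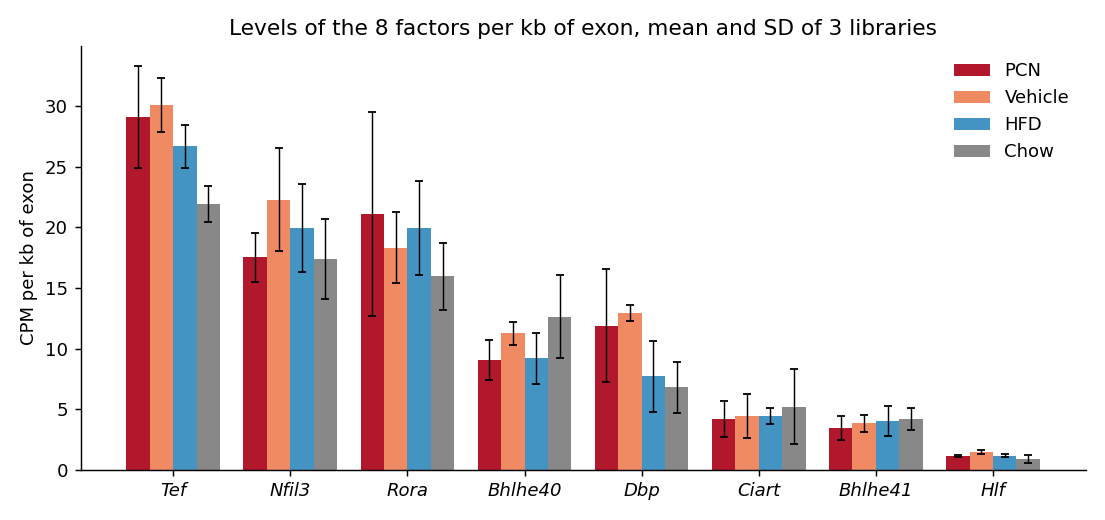
Mean level of each factor in CPM per kilobase of exon (bars) with the SD of 3 libraries (error bars), in PCN, Vehicle, HFD and Chow, factors ordered by their mean over 12 libraries. Tef (27.0 CPM per kb) stands highest and Hlf (1.16 CPM per kb) lowest.

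In the tests, 0 of the 8 factors passed an adjusted p of 0.05 in edgeR's quasi-likelihood test in any of 4 comparisons between pairs of groups. For PCN against Vehicle 0% of 12833 genes passed (362 genes or 2.82% at an unadjusted p under 0.05, and 0% by DESeq2), and for HFD against Chow 0% of 12686 (977 genes or 7.7% unadjusted, and 43 genes or 0.339% by DESeq2). More genes passed where the tables had to be joined. For PCN against HFD 2.94% of 12686 genes passed (20.7% unadjusted, 6.43% by DESeq2), and for Vehicle against HFD 1.51% of 12746 (17.8% unadjusted, 4.82% by DESeq2). Any step that differed between the 2 tables cannot be told apart from injection in these last comparisons, which also share the HFD libraries with each other and with HFD against Chow, as PCN against Vehicle shares its libraries with them. Over all 4 groups at once, 0 of 8 factors passed and 0.179% of 13375 genes did (15.5% unadjusted, 5.73% by DESeq2). At an unadjusted p under 0.05 stood Tef for HFD against Chow and over 4 groups, Dbp for Vehicle against HFD, and 0 factors for PCN against Vehicle or PCN against HFD. DESeq2 passed 1 factor in 1 comparison, Dbp for Vehicle against HFD.

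**Figure D2:**
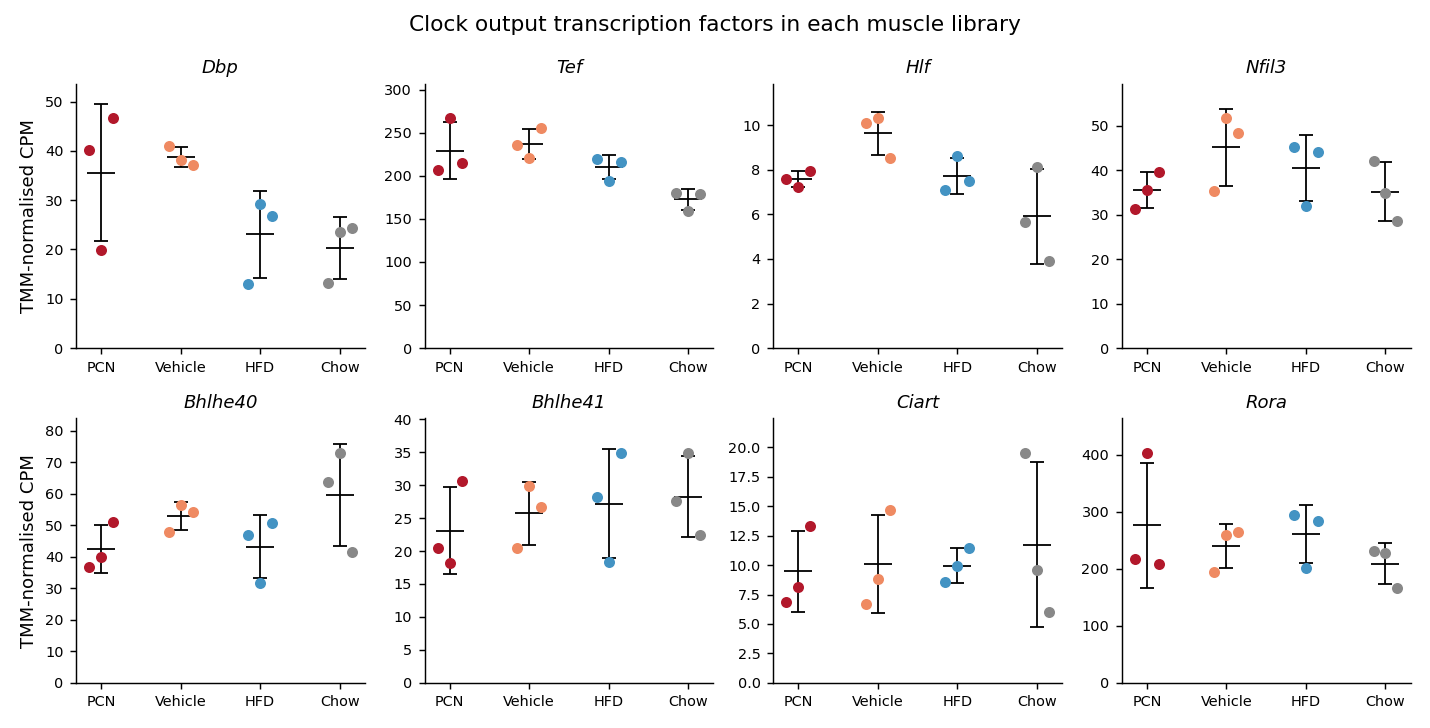
TMM-normalised CPM of each of the 8 factors in every library (points) with the group mean and SD (bars), in PCN, Vehicle, HFD and Chow. The 3 Vehicle libraries of Dbp, 37.1 to 41.0 CPM, lie above all 6 HFD and Chow libraries, 13.1 to 29.3 CPM. The share of all genes so separated was not counted.

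Dbp (ENSMUSG00000059824, chr7:45705088-45710203, plus strand), the D-box activator known for its wide daily swing, had the largest fitted differences of the 8 in PCN against HFD and in Vehicle against HFD. It measured 40.1, 19.9 and 46.6 CPM in PCN 5, 27 and 11, and 41.0, 38.1 and 37.1 CPM in Vehicle 55, 23 and 15. In HFD 4, 38 and 30 it measured 13.1, 29.3 and 26.8 CPM, and in Chow 8, 19 and 17 it measured 13.1, 23.5 and 24.4 CPM. Vehicle libraries lay close together and above every HFD and Chow library, while PCN, HFD and Chow each held 1 low library. The share of all genes that set Vehicle apart from both was not counted. Vehicle and HFD alone were separate for 23.3% of genes. Vehicle exceeded HFD by a log2 fold change of 0.74 ± 0.26 (SE; 95% interval 0.14 to 1.34; 3 of 3 libraries higher), with an edgeR adjusted p of 0.195. The DESeq2 adjusted p was 0.049, and over all 11 alternatives the adjusted p ran up to 0.461. PCN against HFD gave 0.62 ± 0.39 (-0.28 to 1.52; edgeR adjusted p = 0.412), with overlapping groups. The PCN and Vehicle difference was -0.12 ± 0.28 (-0.76 to 0.52), and 0.17 without PCN 27. For HFD against Chow it was 0.20 ± 0.34 (-0.59 to 0.98), against -0.028 without HFD 38 and -0.034 without Chow 8. The 4-group test gave an edgeR adjusted p of 0.344.

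Dbp shares 539 exonic bases, 18.0% of its exons, with Sphk2, a sphingosine kinase gene on the opposite strand. With the strand setting not given in the sources used here, reads of the shared stretch cannot be assigned. Sphk2 averaged 14.3 ± 5.28 CPM in PCN, 13.1 ± 1.03 in Vehicle, 12.4 ± 1.64 in HFD and 13.0 ± 2.0 in Chow. Its Vehicle against HFD difference was 0.073 ± 0.15 on the log2 scale (-0.26 to 0.41; edgeR adjusted p = 0.856).

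Tef (ENSMUSG00000022389, chr15:81802421-81826863, plus strand), the most abundant D-box activator, measured 206, 267 and 214 CPM in PCN 5, 27 and 11 and 236, 220 and 255 CPM in Vehicle 55, 23 and 15. It measured 220, 194 and 216 CPM in HFD 4, 38 and 30 and 180, 159 and 179 CPM in Chow 8, 19 and 17. All 9 libraries of mice on the high-fat diet stood above the 3 Chow libraries. This grouping was chosen after the values were seen, and the share of all genes so separated was not counted. HFD and Chow alone were separate for 13% of genes. HFD exceeded Chow by 0.30 ± 0.13 log2 (0.0085 to 0.59; edgeR adjusted p = 0.644; DESeq2 adjusted p = 0.743). This difference ran from 0.23 to 0.35 over 12 alternatives, among them the fit without Chow 17 and Chow 19, and missed the threshold in each. Vehicle and HFD barely missed overlap, with 220.14 CPM in the lowest Vehicle library against 219.88 CPM in the highest HFD library, at 0.17 ± 0.13 log2 (-0.13 to 0.46). PCN differed from Vehicle by -0.051 ± 0.18 (-0.45 to 0.35) and from HFD by 0.12 ± 0.17 (-0.26 to 0.51). Over the 4 groups the edgeR adjusted p was 0.293.

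Hlf (ENSMUSG00000003949, chr11:90336536-90390895, minus strand), the least abundant of the activators at 61 to 190 counts per library, measured 7.59, 7.22 and 7.94 CPM in PCN 5, 27 and 11 and 10.1, 10.3 and 8.54 CPM in Vehicle 55, 23 and 15. It measured 7.09, 8.64 and 7.49 CPM in HFD 4, 38 and 30 and 5.67, 8.14 and 3.92 CPM in Chow 8, 19 and 17. Every PCN library lay below every Vehicle library, with a difference of -0.35 ± 0.18 log2 (-0.75 to 0.044; edgeR adjusted p = 0.998). HFD and Chow overlapped, at 0.40 ± 0.26 (-0.18 to 0.97), as did Vehicle and HFD at 0.31 ± 0.16 (-0.048 to 0.67). PCN and HFD differed by -0.036 ± 0.18 (-0.43 to 0.36). In the 4-group test Hlf had an edgeR adjusted p of 0.327.

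Nfil3 (ENSMUSG00000056749, chr13:52967209-52981073, minus strand), the repressor at the same D-boxes, measured 31.4, 35.6 and 39.6 CPM in PCN 5, 27 and 11 and 35.3, 51.7 and 48.4 CPM in Vehicle 55, 23 and 15. It measured 45.3, 31.9 and 44.1 CPM in HFD 4, 38 and 30 and 42.0, 35.0 and 28.7 CPM in Chow 8, 19 and 17. All 4 groups overlapped one another. PCN against Vehicle gave -0.35 ± 0.19 log2 (-0.76 to 0.068) and PCN against HFD -0.19 ± 0.18 (-0.59 to 0.21). Vehicle against HFD gave 0.16 ± 0.18 (-0.24 to 0.55) and HFD against Chow 0.21 ± 0.18 (-0.19 to 0.62), the last turning to -0.051 without Chow 17 and Chow 19. The lowest edgeR adjusted p of Nfil3 among these comparisons was 0.593.

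The balance of activators and repressor at the D-box was described as the summed level of Dbp, Tef and Hlf per kb over that of Nfil3 per kb. This ratio averaged 2.42 ± 0.193 in PCN, 2.06 ± 0.480 in Vehicle, 1.83 ± 0.399 in HFD and 1.76 ± 0.436 in Chow (SD, n = 3 each). Single libraries ran from 2.25 to 2.63 in PCN, from 1.66 to 2.59 in Vehicle, from 1.49 to 2.27 in HFD and from 1.36 to 2.22 in Chow. The groups overlapped in part, PCN lying just above Chow, and the ratio was chosen after the values were seen and was not tested.

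The E-box repressors Bhlhe40 (ENSMUSG00000030103, chr6:108660629-108666925, plus strand) and Bhlhe41 (ENSMUSG00000030256, chr6:145858243-145865558, minus strand) had their highest group means in Chow, and no comparison separated the groups. Bhlhe40 measured 36.7, 39.9 and 51.2 CPM in PCN 5, 27 and 11, and 48.0, 56.6 and 54.4 CPM in Vehicle 55, 23 and 15. It measured 46.9, 31.9 and 50.8 CPM in HFD 4, 38 and 30, and 63.9, 73.0 and 41.5 CPM in Chow 8, 19 and 17. Chow 8 and Chow 19 topped all libraries while Chow 17 lay among those of the other groups. HFD against Chow gave -0.45 ± 0.24 log2 (-0.99 to 0.085; edgeR adjusted p = 0.665), and PCN against Vehicle -0.32 ± 0.17 (-0.71 to 0.075). Vehicle against HFD gave 0.29 ± 0.17 (-0.082 to 0.67) and PCN against HFD -0.022 ± 0.21 (-0.48 to 0.44). Bhlhe41 measured 20.5, 18.1 and 30.6 CPM in PCN 5, 27 and 11, and 20.5, 29.9 and 26.7 CPM in Vehicle 55, 23 and 15. It measured 28.2, 18.4 and 34.9 CPM in HFD 4, 38 and 30, and 27.6, 34.8 and 22.4 CPM in Chow 8, 19 and 17. All 4 groups overlapped, and its 4 differences lay between -0.24 and -0.052 log2, each with a 95% interval that included 0.

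Both repressors varied together across libraries more than any other pair of the 8 factors, at a Pearson r of 0.803 and a Spearman rho of 0.734 over 12 libraries that share 1 normalisation. HFD 38 was low in both (31.9 and 18.4 CPM) and Chow 19 high in both (73.0 and 34.8 CPM). Bhlhe41 shares 19.0% of its exonic bases with the unnamed gene model Gm43909 on the opposite strand, which held 15 counts over HFD and Chow and 14 over PCN and Vehicle.

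Ciart (ENSMUSG00000038550, chr3:95878503-95882251, minus strand), a repressor of the CLOCK and BMAL1 complex and the factor with 3 E-boxes in its promoter window, measured 6.89, 8.16 and 13.4 CPM in PCN 5, 27 and 11 and 6.69, 8.80 and 14.7 CPM in Vehicle 55, 23 and 15. It measured 8.53, 9.92 and 11.4 CPM in HFD 4, 38 and 30 and 19.5, 9.60 and 6.04 CPM in Chow 8, 19 and 17. Chow contained both the highest and the lowest library of all 12. Its differences were -0.086 ± 0.34 log2 for PCN against Vehicle (-0.85 to 0.68), -0.078 ± 0.25 for PCN against HFD (-0.65 to 0.49), 0.0052 ± 0.27 for Vehicle against HFD (-0.59 to 0.60) and -0.21 ± 0.39 for HFD against Chow (-1.12 to 0.71). Each changed sign when single libraries were left out, as in HFD against Chow at 0.36 without Chow 8.

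Rora (ENSMUSG00000032238, chr9:68653786-69388246, plus strand), the activator at ROR elements, was high in 1 PCN library. It measured 217, 403 and 208 CPM in PCN 5, 27 and 11 and 195, 259 and 265 CPM in Vehicle 55, 23 and 15. It measured 295, 202 and 284 CPM in HFD 4, 38 and 30 and 231, 229 and 167 CPM in Chow 8, 19 and 17. PCN 27 stood above all others, and the remaining libraries of the 4 groups overlapped. HFD against Chow gave 0.33 ± 0.19 log2 (-0.093 to 0.75; edgeR adjusted p = 0.675) and Vehicle against HFD -0.13 ± 0.18 (-0.53 to 0.28). PCN against Vehicle gave 0.20 ± 0.27 (-0.41 to 0.81) and PCN against HFD 0.080 ± 0.28 (-0.54 to 0.70), which became -0.17 and -0.30 without PCN 27.

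**Figure D3:**
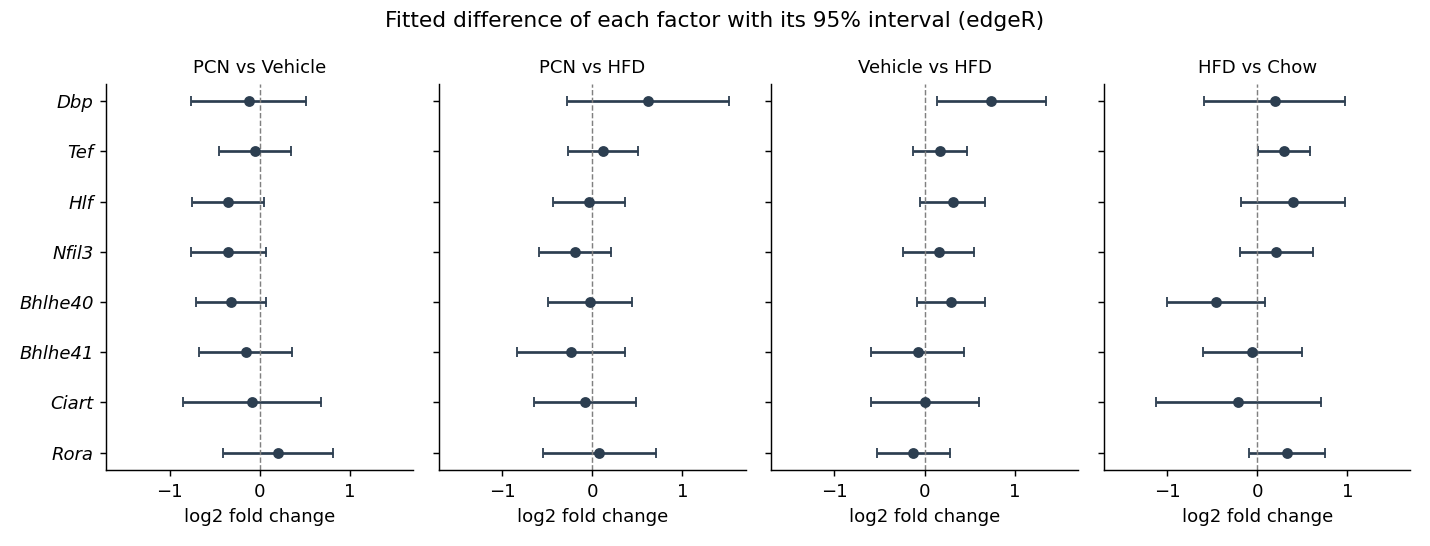
Log2 fold change of each factor (points) with its 95% interval (bars) from edgeR in PCN against Vehicle, PCN against HFD, Vehicle against HFD and HFD against Chow. The intervals of Dbp for Vehicle against HFD (0.14 to 1.34) and of Tef for HFD against Chow (0.0085 to 0.59) exclude 0, and no edgeR adjusted p passed 0.05.

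Counts over the 8 factors were then set beside those over all genes tested. For PCN against Vehicle the fitted difference was below 0 in 7 of 8 factors, Rora being the exception, with a median of -0.14 log2 against 0.014 over all genes, of which 52.3% were above 0. The sign turned without single libraries for Dbp, Tef and Ciart among those 7. The groups did not overlap for 1 factor, Hlf, and for 8.28% of all genes. For PCN against HFD the median was -0.029 log2 against 0.014 over all genes, and groups were separate for 0 factors and 27% of genes. For Vehicle against HFD 6 of 8 differences were above 0, with a median of 0.16 log2 against -0.0014, and groups were separate for 2 factors, Dbp and Tef, and for 23.3% of genes. For HFD against Chow 5 of 8 were above 0, with a median of 0.20 log2 against 0.00043, and groups were separate for 1 factor, Tef, and for 13% of genes.

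The core clock genes, which form the loop itself, were read from a list of 17, of which 14 to 16 passed the expression filter. Vehicle and PCN muscle showed lower Per1 than HFD muscle, and Nr1d1 was lower in PCN than in HFD. Per1, a repressor of the loop, measured 54.4, 43.0 and 57.4 CPM in PCN, 57.4, 53.7 and 73.0 CPM in Vehicle and 98.5, 91.6 and 113 CPM in HFD. No injected library reached an HFD library, a separation not counted over all genes, while Chow spread from 42.6 to 140 CPM. Per1 fell by 0.97 ± 0.17 log2 for PCN against HFD (edgeR adjusted p = 0.0263) and by 0.72 ± 0.15 for Vehicle against HFD (edgeR adjusted p = 0.0483). Nr1d1, which encodes REV-ERBα, the repressor that competes with RORα, fell by 0.98 ± 0.18 for PCN against HFD (edgeR adjusted p = 0.0278), at 18.8 ± 1.62 CPM in PCN and 37.2 ± 8.38 CPM in HFD. Its Vehicle mean was 19.0 ± 5.32 CPM, and Vehicle against HFD gave -0.97 ± 0.22 (edgeR adjusted p = 0.0653, DESeq2 adjusted p = 0.00189).

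These calls were sensitive to single libraries. Per1 for Vehicle against HFD passed in 5 of 11 alternatives, with adjusted p up to 0.399, and missed with all 12 libraries in 1 fit and without Vehicle 23, Vehicle 15 or any 1 HFD library. Per1 and Nr1d1 for PCN against HFD passed in 7 of 11, with adjusted p up to 0.160 and 0.163, and missed in the 12-library fit and without any 1 HFD library. The direction held in all 11 alternatives of each. Of the 14 core clock genes tested for PCN against HFD, 0 rose and 2 fell, beside 2.94% of all genes passing in either direction.

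For HFD against Chow 0 of 16 core clock genes passed, with 4 at an unadjusted p under 0.05 and 0 by DESeq2. Of all genes tested, 7.7% stood at an unadjusted p under 0.05. The core clock genes with the lowest p were Per3 (0.67 ± 0.17 log2), Arntl (-0.65 ± 0.18), Per2 (0.73 ± 0.21) and Npas2 (-1.03 ± 0.44), with edgeR adjusted p from 0.505 to 0.643. Npas2 rested on few reads, with 7 to 12 counts per library in HFD and 15 to 27 in Chow. Nr1d1 gave -0.30 ± 0.41 in this comparison. For PCN against Vehicle 0 of 15 passed and 0 had an unadjusted p under 0.05, likewise 0 by DESeq2. Among those with the lowest p there were Rorb (-1.38 ± 0.63) and Per1 (-0.25 ± 0.18), each with an edgeR adjusted p of 0.998. Rorb rested on few reads, with 1 to 10 counts per library in PCN and 11 to 21 in Vehicle.

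**Figure D4:**
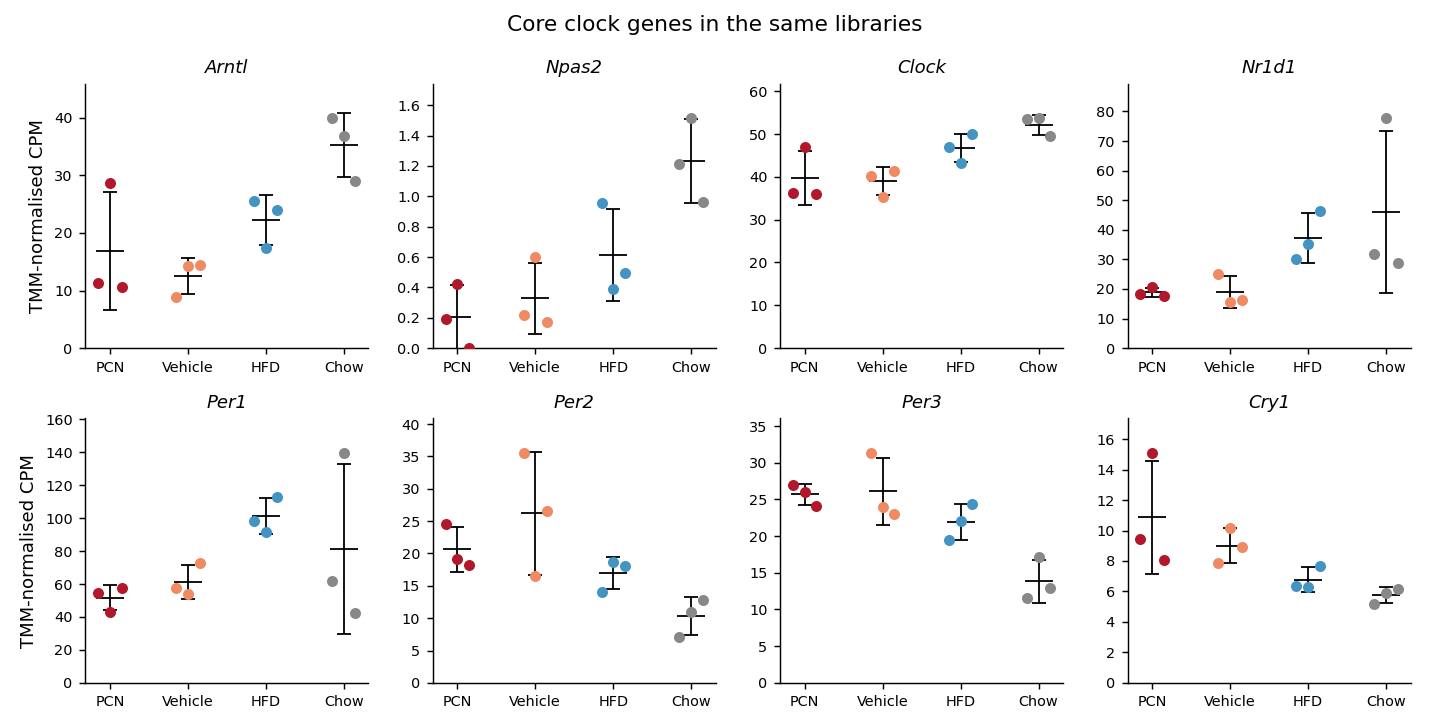
TMM-normalised CPM of 8 core clock genes in every library (points) with the group mean and SD (bars), in PCN, Vehicle, HFD and Chow. Arntl averages 16.9, 12.5, 22.3 and 35.3 CPM in these groups. Per1 in the 6 injected libraries lies below the 3 HFD libraries, a separation not counted over all genes.

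Arntl, which encodes BMAL1, had its highest mean in Chow and its lowest in Vehicle, the reverse of Dbp. It measured 11.2, 28.7 and 10.6 CPM in PCN 5, 27 and 11 and 8.85, 14.2 and 14.5 CPM in Vehicle 55, 23 and 15. It measured 25.5, 17.4 and 24.0 CPM in HFD 4, 38 and 30 and 39.9, 36.8 and 29.1 CPM in Chow 8, 19 and 17. In each of the 4 groups the library with the lowest Dbp was the one with the highest Arntl: PCN 27, Vehicle 15, HFD 4 and Chow 8. Over the 12 libraries the Pearson r of Dbp and Arntl was -0.856 and the Spearman rho -0.902, a description over libraries of 4 groups that share 1 normalisation. Clock and Npas2, whose products pair with BMAL1, likewise had a negative r with Dbp, -0.789 and -0.766. Npas2 rested on few reads here too, with 0 to 9 counts per library in PCN and 3 to 11 in Vehicle. Per2 and Per3 had a positive r with Dbp, 0.725 and 0.653, and Cry1 a weaker one, 0.371. Nr1d1 and Per1 went the opposite way to Per2 and Per3, at -0.451 and -0.224. Tef and Hlf had a weaker relation to Arntl, at r = -0.474 and -0.601, and the 5 remaining factors lay between -0.0508 and 0.318.

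Arntl itself differed by -0.84 ± 0.21 log2 for Vehicle against HFD (edgeR adjusted p = 0.0827, DESeq2 adjusted p = 0.0114, groups separate), -0.40 ± 0.39 for PCN against HFD (adjusted p = 0.615) and 0.43 ± 0.41 for PCN against Vehicle (adjusted p = 0.998). Per2 averaged 20.6 ± 3.42 CPM in PCN, 26.2 ± 9.50 in Vehicle, 17.0 ± 2.50 in HFD and 10.3 ± 2.92 in Chow. Its differences were 0.62 ± 0.26 log2 for Vehicle against HFD, 0.28 ± 0.18 for PCN against HFD and -0.35 ± 0.27 for PCN against Vehicle, and none passed. Over the 4 groups 0 of 16 core clock genes passed edgeR's test, with 8 at an unadjusted p under 0.05, and the lowest adjusted p belonged to Per3 (0.0721). Of all genes tested, 15.5% stood at an unadjusted p under 0.05. DESeq2's 4-group test put the adjusted p of Per3 at 0.000891, Nr1d1 at 0.00216, Per2 at 0.00234, Arntl at 0.00472 and Cry1 at 0.0256. These are not all the core clock genes that passed by DESeq2, and 5.73% of all genes did.

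Of 15 genes in a list of clock-controlled genes, which holds muscle genes such as Tcap and Myod1 beside more widely expressed ones, 0 passed in any pair of groups by edgeR. At an unadjusted p under 0.05 stood 0 of the 15 for PCN against Vehicle, 5 for PCN against HFD, 5 for Vehicle against HFD and 3 for HFD against Chow. The shares over all genes tested were 2.82%, 20.7%, 17.8% and 7.7% in the same comparisons. Pdk4, the kinase that restrains pyruvate oxidation, passed the 4-group test (edgeR adjusted p = 0.0374), in 9 of 17 alternatives, with adjusted p up to 0.107. It averaged 1279 ± 238 CPM in PCN, 1274 ± 256 in Vehicle, 1903 ± 227 in HFD and 3018 ± 85.6 in Chow. The 3 Chow libraries lay above all others, and the share of all genes so separated was not counted. In pairs it gave -0.58 ± 0.22 log2 for PCN against HFD, -0.58 ± 0.20 for Vehicle against HFD and -0.65 ± 0.16 for HFD against Chow, with edgeR adjusted p of 0.186, 0.154 and 0.464, and DESeq2 adjusted p of 0.0574, 0.0213 and 0.00569.

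Others of these genes with the lowest p were Usp2 (-0.59 ± 0.18 log2), Myod1 (0.62 ± 0.23) and Lonrf3 (1.20 ± 0.49) for PCN against HFD, and Myod1 (0.79 ± 0.22), Tcap (0.40 ± 0.16) and Alas1 (-0.37 ± 0.15) for Vehicle against HFD. Wee1, a cell-cycle kinase, gave 0.91 ± 0.26 for HFD against Chow, with Tsc22d3 at 0.35 ± 0.16 and Usp2 at 0.46 ± 0.21. For PCN against Vehicle these were Usp2 (-0.37 ± 0.19), Coq10b (-0.34 ± 0.20), Lonrf3 (0.56 ± 0.38) and Tsc22d3 (-0.41 ± 0.29). DESeq2 put Usp2 for PCN against HFD at an adjusted p of 0.0466, and Myod1 and Tcap for Vehicle against HFD at 0.0388 and 0.0366.

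Genes whose pattern was most like each factor were sought among 10724 genes by Pearson r of log2 CPM over the 12 libraries. For Dbp they were Tspan4 (0.931), Kif21b (0.914), Slc15a2 (0.889), Rbpms (0.877) and Parp8 (0.873), and the most opposite were Trim63 (-0.894), Tcp11l2 (-0.866) and Dnajb9 (-0.865). Tspan4, which stood first, is also 1 of the 15 clock-controlled genes and measured 3.10 ± 0.742 CPM in PCN, 3.49 ± 0.0394 in Vehicle, 2.22 ± 0.847 in HFD and 2.37 ± 1.02 in Chow. Trim63 encodes a muscle ubiquitin ligase of protein breakdown. For Tef the nearest were Maco1 (0.932), Usp8 (0.924) and Lrrc30 (0.890), and for Hlf Srsf9 (0.919), Mamstr (0.891) and Crocc (0.830). For Nfil3 they were Rab10 (0.906), Jph1 (0.900) and Nlk (0.889). Bhlhe40 was nearest to Lbx1 (0.847), Med24 (0.831) and Bhlhe41 (0.803), and Bhlhe41 to Vezf1 (0.888), Pabpc4 (0.854) and Zbtb22 (0.853). Ciart was nearest to Gla (0.881), Tafa5 (0.832) and Eefsec (0.816), and Rora to Stat5b (0.929), Gaa (0.922) and Rubcn (0.921). Bhlhe41 was the sole factor of the 8 among the nearest genes of another.

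Among the factors themselves, Dbp had r = 0.258 with Tef and 0.516 with Hlf, and Tef had 0.414 with Hlf. Nfil3 had -0.0647 with Dbp, 0.398 with Tef and 0.422 with Hlf. By Pearson r Nfil3 had 0.535 with Bhlhe40, 0.600 with Bhlhe41 and 0.547 with Ciart, and Rora had 0.595 with Tef and 0.496 with Nfil3. By Spearman rho Nfil3 stood nearer to the activators Rora (0.685) and Tef (0.566). Its rho with the repressors Bhlhe40, Bhlhe41 and Ciart was 0.531, 0.476 and 0.531. The relation of each factor to Myh1, a gene that set PCN 5 and Vehicle 55 apart, ran from -0.0913 for Dbp to -0.590 for Nfil3, and the part of fibre makeup in these patterns was not tested.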

How the data were processed

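RNA sequencing of mouse skeletal muscle gave 12 libraries, 3 per group. The authors deposited raw read counts per Ensembl gene in 2 tables of 6 libraries, PCN with Vehicle and HFD with Chow. HISAT2, HTSeq and DESeq2 with builds GRCm38 and mm10 were used, per the submitters' processing notes. Versions, annotation release and strand setting: not given in the sources used here. Counts were analysed as deposited, and the tables' own comparison columns were not used here.

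Each pair of groups was fitted on its 6 libraries, and the 4 groups on all 12, with edgeR 4.0.16 in R 4.3.3: TMM normalisation, filterByExpr with its default minimum count of 10, the robust quasi-likelihood F test and Benjamini-Hochberg adjustment over all genes, threshold 0.05. Log2 fold changes are first-named over second-named group, SE is their absolute value over the square root of F, and intervals are 95%. Comparisons across tables used the 21976 shared genes. DESeq2 1.42.0, its size factors, other filters and left-out libraries were alternatives. The steps were tested on simulated data. Replicates differed by far more than sampling noise (chi-square per gene 21.6 to 121). CPM per kb used exonic lengths of the GRCm38 annotation. Relative counting error is largest for Hlf, the factor with the fewest reads.

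All 8 factors are described. From the core clock and clock-controlled lists, genes past the threshold are named, or else the 4 with the lowest p, plus Arntl, Per2 and Nr1d1 and the nearest genes by Pearson r (mean of at least 1 CPM). Other members of these lists given by value were chosen after their values were seen. Factors, lists and rules were chosen with earlier results of these data known. Some genes that these rules take are not reported here.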

Additional observations from a re-analysis of the deposited data

How the results depend on the processing

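The count of factors passing stayed at 0 in all comparisons and alternatives but 1: DESeq2 passed 1 for Vehicle against HFD, Dbp (0.74 log2, adjusted p = 0.049). Counts of all genes moved widely. DESeq2 passed 816 genes for PCN against HFD, 614 for Vehicle against HFD, 43 for HFD against Chow, 766 over 4 groups and 0 for PCN against Vehicle. Without an expression filter the edgeR counts were 21 for PCN against Vehicle, 672 for PCN against HFD, 571 for Vehicle against HFD, 237 for HFD against Chow and 185 over 4 groups. With a mean of at least 1 CPM the 4-group count was 13, and with all 12 libraries in 1 fit 0 genes passed for Vehicle against HFD. Leaving out single libraries gave 0 to 634 genes for PCN against HFD, 0 to 1180 for Vehicle against HFD, 0 to 219 for HFD against Chow and 3 to 216 over 4 groups. The 4-group count was 88 without Chow 17 and Chow 19 together. The cause was not tested.

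Signs of small differences turned in some fits. Nfil3 for HFD against Chow was -0.051 without Chow 17 and Chow 19, and Ciart for Vehicle against HFD was -0.0011 at a mean of at least 1 CPM. With single libraries left out, the PCN against Vehicle differences ran from -0.38 to 0.17 for Dbp, -0.17 to 0.015 for Tef, -0.42 to 0.28 for Ciart and -0.17 to 0.36 for Rora. PCN against HFD ran from -0.00072 to 0.19 for Tef, -0.072 to 0.051 for Hlf, -0.20 to 0.13 for Bhlhe40, -0.38 to 0.10 for Ciart and -0.30 to 0.28 for Rora. Vehicle against HFD ran from -0.30 to 0.13 for Bhlhe41 and -0.36 to 0.22 for Ciart, and HFD against Chow from -0.034 to 0.47 for Dbp, -0.26 to 0.16 for Bhlhe41 and -0.53 to 0.36 for Ciart. No paired analysis was possible because the libraries carry unique numbers and no 2 groups share them. With 3 libraries per group, differences as small as most seen here could not be told from the spread.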

Other observations

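Some libraries were extreme for several factors at once. Of the 8 factors, Chow 17 had the lowest level of 4 (Hlf, Nfil3, Ciart and Rora) and the highest of 0. PCN 27 had the highest level of 2 (Tef and Rora) and the lowest of 1 (Bhlhe41). Vehicle 23 had the highest level of 2 (Hlf and Nfil3).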
